A study of Mus musculus with 10 samples.

Results

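The 9 genes described here are the core of the Hedgehog pathway, chosen by name: the ligand gene Shh, the co-receptor genes Cdon and Gas1, the receptor gene Ptch1, the antagonist gene Hhip, the transducer gene Smo and the transcription factor genes Gli1, Gli2 and Gli3. All 9 were found among the 49671 genes listed, and all 9 passed the filter on low counts that left 14528 genes to test. RNA came from green fluorescent cells sorted from single mouse embryos on embryonic day 10.5, with 1 library per embryo and 5 embryos per genotype, on a mixed 129/Sv-C57BL/6 background. The 5 control embryos had the genotype Wnt1Cre;R26mTmG;p53+/+, and the 5 embryos called p53_activated had the genotype Wnt1Cre;R26mTmG;p53LSL-25,26/+, with 1 engineered and 1 normal p53 allele. Embryos of both groups carried the Wnt1-Cre recombinase and the R26mTmG reporter, which turns from a red to a green fluorescent protein after recombination. In the p53_activated embryos the same recombinase removed a stop cassette and let a stabilised p53 protein be made. Wnt1-Cre acts in the dorsal neural tube and the midbrain, so the sorted cells could hold neural tube cells beside neural crest.

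In the absence of ligand the receptor PTCH1 keeps the membrane protein SMO off, and GLI3, with part of GLI2, is cut into a repressor of transcription. When Sonic hedgehog binds PTCH1, helped by CDON and GAS1, SMO moves into the primary cilium and GLI2 and GLI3 are kept as activators. Ptch1, Gli1 and Hhip are themselves switched on by GLI proteins, so their transcripts are commonly read as the output of the pathway. In the face, Sonic hedgehog from pharyngeal endoderm, oral ectoderm and ventral forebrain acts on neural crest mesenchyme, and loss of the signal leads to midline defects such as holoprosencephaly.

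In the embryos with stabilised p53 the transcripts of 4 of the 9 genes rose: Ptch1, Cdon, Gli3 and Gli1. The rises were 1.41-fold for Ptch1, 1.41-fold for Cdon, 1.38-fold for Gli3 and 1.95-fold for Gli1. No member was called lower by edgeR or by DESeq2, and 1 of them, Gas1, had a lower level at an unadjusted p under 0.05 (0.0158). Of all tested genes 4.49% were called higher and 2.74% lower. In Ptch1, Cdon and Gli3 the lowest p53_activated value exceeded the highest control value, as was the case in 4.54% of all tested genes, while 3.52% of tested genes and no member had all p53_activated embryos below the controls. The median log2 fold change of the 9 members was 0.48, beside -0.01 over all tested genes.

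**Figure D1:**
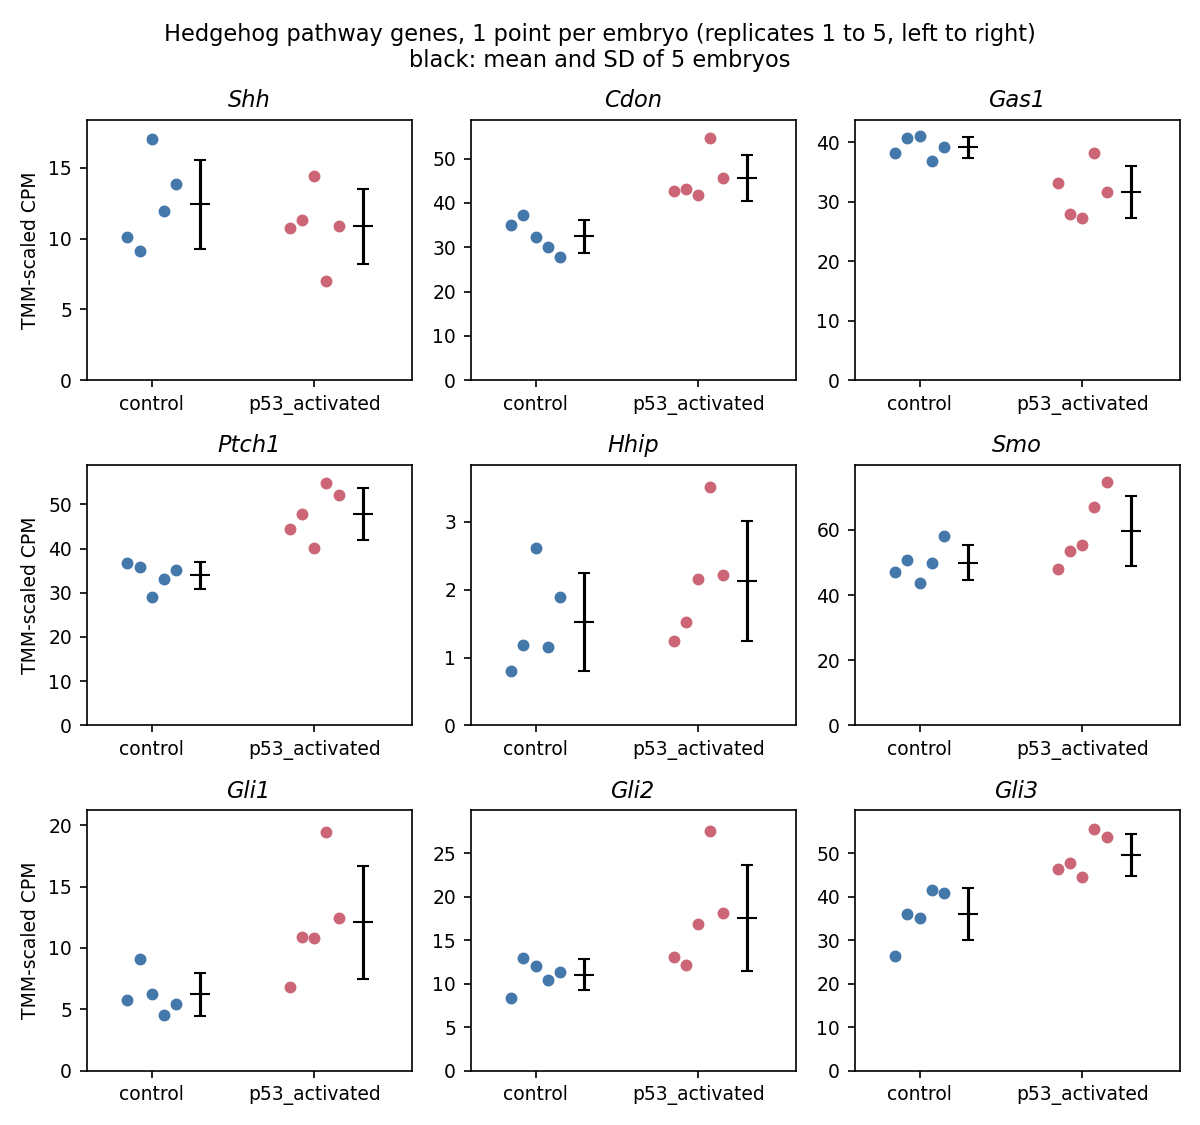
TMM-scaled CPM of the 9 Hedgehog pathway genes in each of the 10 embryos, with a separate vertical axis from 0 for each gene; black bars give the mean and SD of 5 embryos. The groups were separated in Cdon, Ptch1 and Gli3, and p53_activated replicate 4 was the highest library for Gli1, Gli2, Gli3, Ptch1, Cdon, Hhip and Gas1 within its group.

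Levels are given as CPM, the counts of a gene relative to the library total after scaling by the trimmed mean of M-values (TMM). The labels were checked against p53 targets, and the makeup of the sorted cells against marker genes. The p53 target Cdkn1a lay between 5.82 and 9.57 CPM in controls and between 90.8 and 117 CPM in p53_activated libraries, and Mdm2 between 23.3 and 25.6 and between 40.5 and 51.4 CPM. Library totals ran from 12368058 counts in control replicate 2 to 28379562 counts in p53_activated replicate 4. The latter also had the highest TMM factor (1.07, against 0.949 to 1.03 in the other libraries). Marker genes of neural crest (6 genes, 156 to 205 CPM summed in controls and 153 to 190 in p53_activated) and of arch mesenchyme (8 genes, 312 to 482 and 295 to 370 CPM) were present in all libraries, and 1 of the latter, Prrx2, fell (log2 fold change -0.41, edgeR adjusted p = 0.0386). Of the 8 arch mesenchyme genes 4 had log2 fold changes above 0, with a median of 0.12. At an unadjusted edgeR p under 0.05, 2 of them were higher and 1 lower, and DESeq2 called 1 higher and 1 lower. Dorsal neural tube markers summed to 159 to 251 CPM in controls and 169 to 249 CPM in p53_activated libraries, most of it from Msx1. Of these 7 genes 6 had log2 fold changes above 0, with a median of 0.61, and 4 were higher at an unadjusted p under 0.05. Olig3 rose (0.85, edgeR adjusted p = 0.0237), and Wnt3a, at 2.64 CPM in controls and 5.71 CPM in p53_activated embryos, had no overlap but did not pass (0.132). Markers of the floor plate and ventral neural tube were low (7 genes, 30.7 to 45.7 and 34.6 to 50.6 CPM). Of these 4 had log2 fold changes above 0, with a median of 0.08. By edgeR or DESeq2 0 of the 7 were called, and 1 was higher and 0 lower at an unadjusted edgeR p under 0.05. The notochord genes T and Noto were at or near 0. Neuronal markers differed between the groups: 6 of 7 fell, from a summed 472 to 626 CPM in controls to 261 to 364 CPM in p53_activated libraries. Epithelial markers, of a tissue that makes Sonic hedgehog, summed to 71.6 to 172 CPM in controls and 38.2 to 114 CPM in p53_activated libraries. Their median log2 fold change was -0.90, with 0 of 7 above 0. Of the 7, 0 were called by edgeR or DESeq2 and 3 were lower at an unadjusted p under 0.05. Mesoderm and muscle markers summed to 27.6 to 43.1 and 13.0 to 28.8 CPM, with a median log2 fold change of -0.81 and all 5 tested genes below 0. Of these edgeR called 0, with 3 lower at an unadjusted p under 0.05, and DESeq2 called 2 lower. Erythroid markers varied widely within both groups (829 to 4485 and 502 to 6018 CPM), with 0 of 7 called by either tool and 0 at an unadjusted p under 0.05. Control replicates 1 and 2 stood apart from the other 8 libraries, with the lowest Lin28a (2.96 and 6.21 CPM, against at least 10.8) and the highest ratio of Hbb-y to Hbb-bh1 counts (4.97 and 2.69, against at most 2.08), a pair of embryonic globins. The part of these differences in the results for the Hedgehog genes was not tested, and in such sorted pools fewer cells of a type and less RNA per cell cannot be told apart.

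The ligand gene did not pass the test. Shh (chromosome 5, 28456815 to 28467256, GRCm38) encodes Sonic hedgehog, which is made by signalling centres and not by most of the cells that respond to it. It was read at 10.1, 9.12, 17.0, 11.9 and 13.8 CPM in control replicates 1 to 5, and at 10.7, 11.3, 14.4, 6.98 and 10.9 CPM in p53_activated replicates 1 to 5. The groups overlapped over most of their range, with the lowest value in p53_activated replicate 4 and the highest in control replicate 3. The log2 fold change was -0.20 ± 0.21 (SE, edgeR adjusted p = 0.63). Of its exon length 28.3% is shared with the non-coding genes Gm26894 and 9530036O11Rik on the opposite strand, which had at most 32 and 10 counts in a library, so its count is uncertain. The other ligand genes Ihh and Dhh had means under 0.5 CPM in both groups and were not tested.

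The co-receptor genes Cdon and Gas1 stood on opposite sides of 0. Cdon (chromosome 9, 35421128 to 35507652) encodes an immunoglobulin-family protein of the cell surface that binds Sonic hedgehog and presents it to PTCH1. It was at 35.1, 37.2, 32.3, 30.1 and 27.8 CPM in control replicates 1 to 5 and at 42.7, 43.2, 41.9, 54.7 and 45.6 CPM in p53_activated replicates 1 to 5. All 5 p53_activated embryos were above the highest control, and p53_activated replicate 4 stood apart at the top. Cdon rose from a mean of 32.5 ± 3.75 to 45.6 ± 5.26 CPM (mean ± SD of 5 embryos each). Its log2 fold change was 0.49 ± 0.12 (SE), with an edgeR adjusted p of 0.0183. Among 20 other settings the call was lost without control replicate 4, where the adjusted p was 0.0508 (range over the settings 0.00285 to 0.0508).

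Gas1 (chromosome 13, 60174405 to 60177365) is a single-exon gene for a lipid-anchored surface protein, first known from growth-arrested cells, that acts beside CDON in binding the ligand. It was at 38.2, 40.7, 41.1, 36.8 and 39.2 CPM in control replicates 1 to 5 and at 33.1, 27.9, 27.4, 38.2 and 31.7 CPM in p53_activated replicates 1 to 5. In 4 of 5 p53_activated embryos it lay below the lowest control, and in p53_activated replicate 4 it lay within the control range. The log2 fold change of -0.31 ± 0.11 did not pass with all libraries (edgeR adjusted p = 0.116). Without p53_activated replicate 4 it was -0.39 with an adjusted p of 0.0466, the lowest of 20 other settings, over which the adjusted p reached 0.266. Of its exon length 19.9% is shared with Gm48488 on the opposite strand, which is not among the genes listed, so the count of Gas1 is uncertain.

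The receptor gene Ptch1 had the smallest p of the 9 members. Ptch1 (chromosome 13, 63508328 to 63573598) encodes the receptor that both restrains SMO and is induced by the pathway as negative feedback. It was at 36.8, 35.8, 29.1, 33.1 and 35.0 CPM in control replicates 1 to 5 and at 44.3, 47.7, 40.1, 54.8 and 52.1 CPM in p53_activated replicates 1 to 5. The lowest p53_activated embryo was above the highest control. Ptch1 rose from a mean of 34.0 ± 3.03 to 47.8 ± 5.91 CPM (mean ± SD of 5 embryos each). Its log2 fold change was 0.50 ± 0.11 (SE), with an edgeR adjusted p of 0.0155. At the threshold of 0.05 the call was kept under all 20 other settings, with adjusted p from 0.00177 to 0.0435, and at a threshold of 0.01 it was lost.

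Ptch1 has the longest exon sequence of the members, and long genes as a class were shifted upwards in these libraries. Tested genes with at least 7000 bases of merged exons, a limit chosen after the data were seen, had a median log2 fold change of 0.10 and 8.65% of them were called higher, against -0.04 and 3.27% of shorter genes. Ptch1 (14185 bases), Gli3 (9589), Hhip (9076) and Cdon (7715) are in the long class. With the trend on exon length removed, an alternative added after the data were seen, Ptch1 was at 0.32 (adjusted p = 0.0609) and Gli3 at 0.33 (0.133). In the same fit Cdon was at 0.40 (0.0286) and Gli1, with 4995 bases, at 0.95 (0.0317).

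Promoter sequence was available from RefSeq for 7 of the 9 members (GRCm38.p6, 250 bases before to 50 after a start site), not for Shh and Gli1. The stretches before the start sites of Ptch1 (chr13:63565736-63565985, minus strand) and Gli2 (chr1:119053620-119053869, minus strand) are shown because Ptch1 is the GLI-induced member with the clearest rise and Gli2 is the single member with the GLI core letters, marked in capitals. Both run 5′ to 3′ along the gene's strand.
Ptch1: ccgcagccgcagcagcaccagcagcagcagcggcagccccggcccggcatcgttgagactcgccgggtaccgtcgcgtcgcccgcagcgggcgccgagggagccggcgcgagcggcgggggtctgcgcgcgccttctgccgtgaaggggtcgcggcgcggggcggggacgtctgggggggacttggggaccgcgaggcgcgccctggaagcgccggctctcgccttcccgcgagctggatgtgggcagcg
Gli2: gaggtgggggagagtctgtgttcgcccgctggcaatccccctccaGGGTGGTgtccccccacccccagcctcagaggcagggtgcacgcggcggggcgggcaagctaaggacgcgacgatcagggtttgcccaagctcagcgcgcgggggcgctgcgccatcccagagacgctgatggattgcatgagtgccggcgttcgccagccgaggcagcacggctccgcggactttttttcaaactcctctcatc
The GLI motif GACCACCCA, searched on both strands, was in none of the 7 windows and in 0.253% of the 32851 windows of all genes. Its shorter core ACCACCC, which lies within the longer motif, was in the Gli2 window on the reverse strand from -205 to -199 before the start site, and in 4.61% of all windows. A p53 half-site (RRRCWWGYYY, where R is A or G, W is A or T and Y is C or T) was found in the Gas1 window, as in 8.36% of all windows. It did not lie within the 250 bases before the Gas1 start site. No such site was in the windows of Ptch1, Smo, Gli2, Gli3, Hhip or Cdon. These matches describe letters only, within windows that hold neither distant enhancers nor the other start sites of Ptch1. The 250 bases read for Cdon (chr9:35451826-35452075, plus strand) lie inside the gene, which starts at 35421128. They also overlap an exon, so the sequence at that first start was not searched. The same holds for the 250 bases read for Gli3 (chr13:15463473-15463722, plus strand), whose gene starts at 15463235. The Ptch1 stretch overlaps no exon but also lies inside its gene, which on the minus strand starts at 63573598. The sequence at that start of Ptch1 was likewise not searched.

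Hhip and Smo did not pass the test. Hhip (chromosome 8, 79965851 to 80058006) encodes a decoy that binds Hedgehog ligands and is induced by them. It was the least counted member, with 14 to 63 counts per control library and 18 to 107 per p53_activated library, or 0.796, 1.18, 2.62, 1.15 and 1.89 CPM in control replicates 1 to 5 and 1.24, 1.52, 2.16, 3.52 and 2.22 CPM in p53_activated replicates 1 to 5. Only p53_activated replicate 4 exceeded the highest control. Its log2 fold change of 0.48 ± 0.41 was close in size to that of Ptch1 but had a standard error over 3 times as large (edgeR adjusted p = 0.54).

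Smo (chromosome 6, 29735503 to 29761365) encodes the membrane protein that passes the signal on to the GLI factors. It was at 47.2, 50.9, 43.6, 49.8 and 58.1 CPM in control replicates 1 to 5 and at 48.1, 53.4, 55.5, 67.0 and 74.6 CPM in p53_activated replicates 1 to 5. In p53_activated replicates 4 and 5 it was above all controls, and the other 3 lay within the control range. The log2 fold change was 0.26 ± 0.13 (SE, edgeR adjusted p = 0.232), and it was called under 0 of 20 other settings (0.134 to 0.472).

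All 3 GLI transcription factor genes had higher means in p53_activated embryos, and 2 of them passed the test. Gli1 (chromosome 10, 127329882 to 127341974) encodes an activator that depends on pathway activity for its own transcription. It was at 5.74, 9.12, 6.27, 4.53 and 5.46 CPM in control replicates 1 to 5 and at 6.81, 10.9, 10.8, 19.5 and 12.4 CPM in p53_activated replicates 1 to 5. Apart from p53_activated replicate 1, the p53_activated embryos lay above all controls, and replicate 4 was the highest of all. Gli1 rose from a mean of 6.23 ± 1.74 to 12.1 ± 4.62 CPM (mean ± SD of 5 embryos each). Its log2 fold change was 0.97 ± 0.26 (SE), with an edgeR adjusted p of 0.0336, and was the largest of the 9. Gli1 was called under 9 of 20 other settings. The call was lost with total-count scaling (adjusted p = 0.0535), embryo sex as a term (0.056) and the replicate block (0.0671). Leaving out a single library kept the call for control replicate 2 or p53_activated replicate 1. It was lost for each of the other 8 (control 1, 3, 4, 5 and p53_activated 2, 3, 4, 5), where adjusted p reached 0.081. Without p53_activated replicate 4 the log2 fold change was 0.72. Arhgap9 on the opposite strand shares part of the 6.55% of Gli1 exon length that overlaps other genes, and its mean went from 1.88 CPM in controls to 1.33 CPM in p53_activated libraries.

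Gli2 (chromosome 1, 118834132 to 119053619) encodes the main activator at the start of a Hedgehog response. It was at 8.30, 13.0, 12.1, 10.5 and 11.4 CPM in control replicates 1 to 5 and at 13.1, 12.2, 16.9, 27.6 and 18.1 CPM in p53_activated replicates 1 to 5. Here too 4 of 5 p53_activated embryos exceeded every control, with replicate 4 far above the rest. The log2 fold change of 0.68 ± 0.21 did not pass (SE, edgeR adjusted p = 0.0625). It passed under 4 of 20 other settings (range 0.0246 to 0.149): DESeq2 (0.0304), no filter on low counts (0.0246), and without p53_activated replicate 1 (0.0455) or 2 (0.0422). Without p53_activated replicate 4 it was 0.45 (0.149).

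Gli3 (chromosome 13, 15463235 to 15730026) encodes the factor that acts mainly as a repressor when ligand is absent, and its loss causes craniofacial and limb malformations. It was at 26.5, 36.2, 35.2, 41.6 and 41.0 CPM in control replicates 1 to 5 and at 46.3, 47.7, 44.5, 55.7 and 53.7 CPM in p53_activated replicates 1 to 5. The groups did not overlap, and control replicate 1 was the lowest library. Gli3 rose from a mean of 36.1 ± 6.07 to 49.6 ± 4.83 CPM (mean ± SD of 5 embryos each). Its log2 fold change was 0.46 ± 0.13 (SE), with an edgeR adjusted p of 0.0393. Gli3 was called under 11 of 20 other settings. The call was lost with upper quartile scaling (adjusted p = 0.0545), total-count scaling (0.0645) and embryo sex as a term (0.0672). Leaving out a single library lost it for control replicate 1, 2 or 3 and for p53_activated replicate 2, 4 or 5. In those fits adjusted p reached 0.0971. Without both control replicates 1 and 2, an alternative added after the data were seen, the log2 fold change of Gli3 was 0.34 (adjusted p = 0.116), while Ptch1 (0.56, 0.0196), Cdon (0.60, 0.0107) and Gli1 (1.16, 0.0366) passed.

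**Figure D2:**
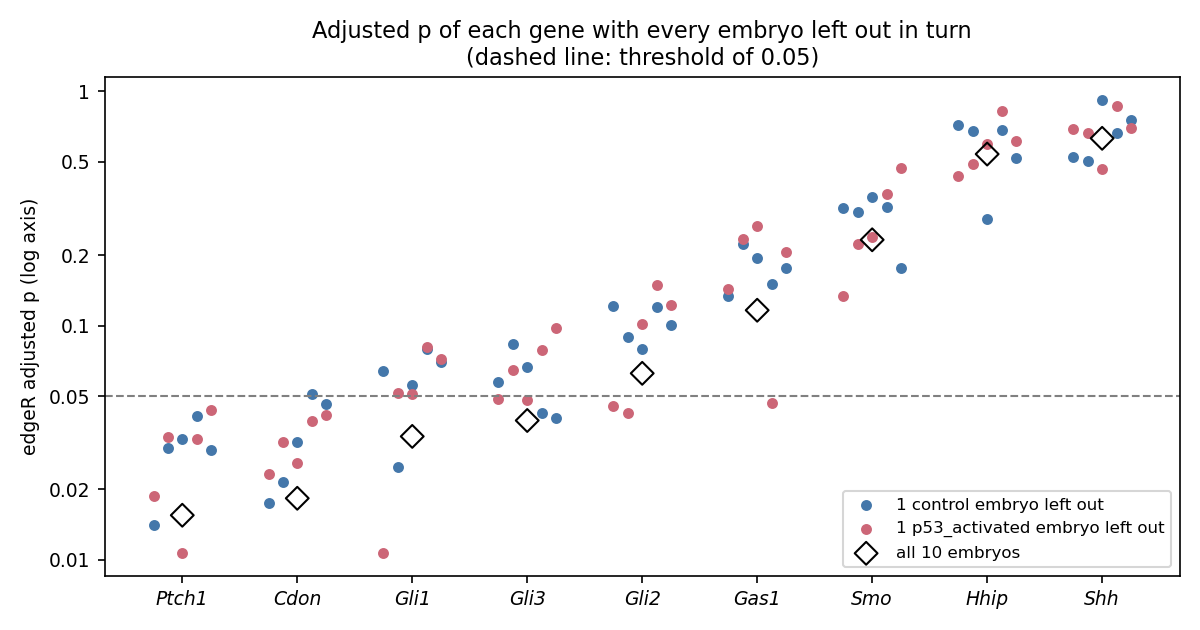
Adjusted p of each gene on a log axis with all 10 embryos (diamonds) and with each embryo left out in turn (points, coloured by the group of the embryo left out); the dashed line is 0.05. Ptch1 stayed below the line in all 10 fits and Cdon in 9, while Gli1 and Gli3 stayed below it in 2 and 4.

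The authors' deposited table gave the same direction for all 9 genes. In it 5 members were higher at an adjusted p under 0.05, among 6.34% of its genes with an adjusted p, and 0 lower, among 4.43%. In the authors' deposited table the log2 fold changes were 0.48 for Ptch1 (adjusted p = 0.00161), 0.47 for Cdon (0.00261), 0.80 for Gli1 (0.00585), 0.44 for Gli3 (0.0137) and 0.59 for Gli2 (0.028). Gas1, at -0.29 (0.0964), Smo, Hhip and Shh did not pass there either.

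Levels were compared between genes per kilobase of exon. In control embryos Gas1 had the highest level (13.2 ± 0.598 CPM per kb, SD, n = 5), followed by Smo (8.88 ± 0.954). Shh (4.36 ± 1.11), Cdon (4.21 ± 0.486) and Gli3 (3.76 ± 0.633) came next, and neighbours among these 3 overlapped in range. Ptch1 (2.39 ± 0.214) lay below them, and Gli2 (1.61 ± 0.26) and Gli1 (1.25 ± 0.348) overlapped in range, although Gli2 was above Gli1 in 5 of 5 control libraries. Hhip was last at 0.168 ± 0.0802 CPM per kb. In p53_activated embryos Gas1 (10.7 ± 1.49) and Smo (10.6 ± 1.92) had means close to each other, and Cdon (5.91 ± 0.681) and Gli3 (5.17 ± 0.504) had means above that of Shh (3.82 ± 0.926). With the longest transcript as the length, Gli3 moved ahead of Shh and Cdon in controls, where Gas1 and Smo were both at 13.2 CPM per kb, and in p53_activated embryos Smo (15.8) was above Gas1 (10.7).

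**Figure D3:**
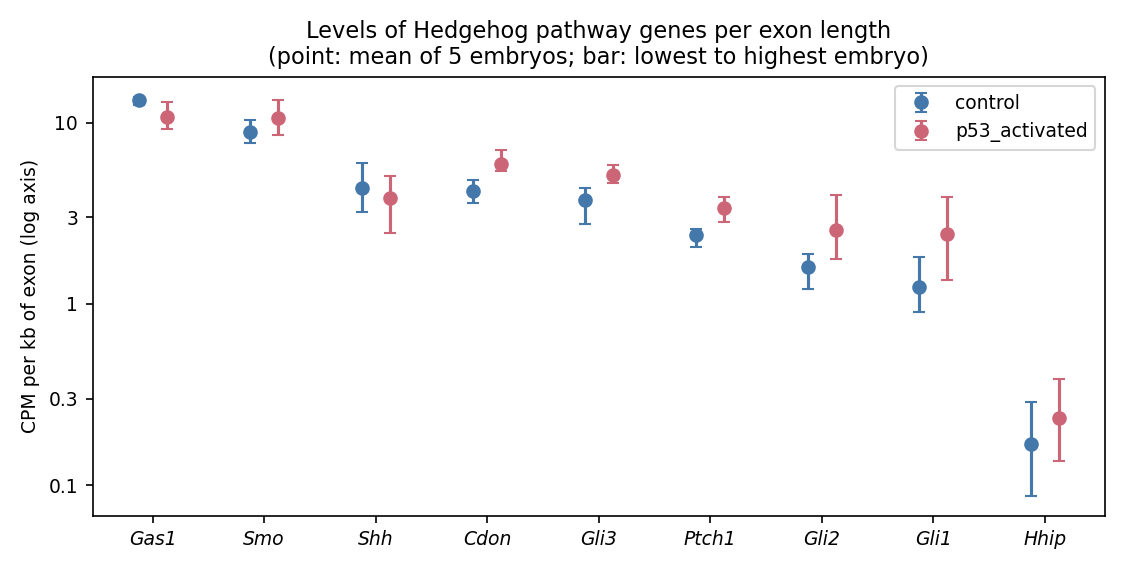
Levels of the 9 genes in CPM per kilobase of merged exons on a log axis, ordered by the control mean; points are means of 5 embryos and bars run from the lowest to the highest embryo. Gas1 and Smo lie at the top, Hhip at the bottom, and the p53_activated means are above the control means in all genes but Gas1 and Shh.

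Co-variation of the 3 GLI-induced genes across embryos was read after removing the mean of each group. Ptch1 and Gli1 had a Pearson r of 0.51 and a Spearman rho of 0.60 over 10 embryos (permutation p = 0.177 and 0.106, adjusted over 3 pairs 0.266 and 0.275). Without the 2 embryos farthest from the median of Ptch1, control replicate 3 and p53_activated replicate 3, r was 0.86, and without p53_activated replicate 4 alone it was 0.27. Gli1 and Hhip had an r of 0.52 and a rho of 0.48 (permutation p = 0.138 and 0.183, adjusted 0.266 and 0.275), which rested on 2 embryos, since r was 0.05 without p53_activated replicates 1 and 4 (0.27 without replicate 4 alone). Ptch1 and Hhip had an r of -0.06 and a rho of 0.05 (permutation p = 0.869 and 0.892, adjusted 0.869 and 0.892), and r was 0.60 without control replicate 3 and p53_activated replicate 3. Its sign was negative within the controls and positive within the p53_activated embryos, each too few for a value of their own, and leaving out 1 library moved it between -0.45 and 0.36. No pair passed the test.

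Among the 14527 other tested genes, the group-centred pattern over the 10 libraries most like that of Gli1 was that of Rev1, a DNA polymerase gene (r = 0.98), followed by Grm4, Bcl9l, Dmxl2 and Plekhg5 (0.96 to 0.94). For Ptch1 the closest were Hbb-bs, a globin gene (0.97), Svep1, H2-T23, Kctd14 and Lasp1. Closest to Gli3 were Knop1 (0.97), Srsf2, Bcl2l13, Mknk2 and Dcp1a, and closest to Cdon were Hdac7 (0.97), Adgra2, Brd8, Ddit4 and Fbn1. These values describe 10 libraries and were picked as the highest among 14527 genes. That choice by itself yields a high r, and no test was made. No gene was shared between the 4 sets of 5.

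The other genes of the pathway were read in 6 lists of 60 genes in all, of which 57 were tested. In total 5 rose (Scube3, Rab23, Dync2h1, Inpp5e and Ccnd1) and 0 fell, with 41 of 57 log2 fold changes above 0 and a median of 0.16. Over all tested genes 4.49% were called higher, 7065 of 14528 log2 fold changes were above 0 and the median was -0.01. Of 5 tested genes for ligand release, Scube3 rose, from 15.4 ± 2.75 to 27.3 ± 8.98 CPM (SD, n = 5 each), which is 0.83 ± 0.21 on the log2 scale (edgeR adjusted p = 0.0255). SCUBE proteins help release lipid-bearing Sonic hedgehog from the cells that make it. Its call was lost when control replicate 1, 2 or 4 or p53_activated replicate 4 or 5 was left out (adjusted p at most 0.0753). Disp1 (0.52 ± 0.27), the transporter that exports the ligand, and Scube1 (0.31 ± 0.17) did not pass.

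Of 5 tested genes for further receptors and ligand-binding proteins 0 were called by edgeR or DESeq2, and 0 had an unadjusted p under 0.05, with a median log2 fold change of 0.08. Lrp2, at a log2 fold change of 0.48 ± 0.29 (SE), and Gpc3, a surface glypican that competes with PTCH1 for ligand, at 0.08 ± 0.11, did not pass. Of 20 tested genes for signal transduction and GLI regulation 0 were called by edgeR or DESeq2, 5 were higher at an unadjusted p under 0.05, and the median was 0.09. The smallest p in it were those of Kif7 (0.51 ± 0.18, adjusted p = 0.0993), a kinesin of the cilium tip, Sufu (0.44 ± 0.16, 0.101), which holds GLI proteins in check, and Gsk3b (0.46 ± 0.18, 0.128), a kinase that marks them for processing.

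Hedgehog signals pass through the primary cilium, and 3 of 16 tested cilium genes rose, with a list median of 0.11, beside 4.49% called higher over all tested genes. Of the 3, Rab23 alone kept its call whichever library was left out. Rab23, a small GTPase that restrains Hedgehog signalling, rose from 7.68 ± 1.04 to 12.9 ± 1.33 CPM (SD, n = 5 each), with no overlap between the groups (log2 fold change 0.74 ± 0.16, edgeR adjusted p = 0.00969). Its call was kept under all 20 other settings. Dync2h1, the motor of transport back from the cilium tip, rose by 0.83 ± 0.23 on the log2 scale (adjusted p = 0.0375), and Inpp5e, a phosphatase of the cilium membrane, by 0.76 ± 0.21 (0.0379). Dync2h1 lost its call in 7 and Inpp5e in 6 of the 10 fits that left out 1 embryo (up to 0.113 and 0.095): Dync2h1 on leaving out control replicate 1, 2, 4 or 5 or p53_activated replicate 3, 4 or 5, and Inpp5e on leaving out control replicate 2, 3, 4 or 5 or p53_activated replicate 4 or 5.

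Targets of the pathway were read in a pair of lists. Of 7 tested forkhead and other genes that answer to Hedgehog signals in facial mesenchyme 0 were called by edgeR, with a median log2 fold change of -0.03, while DESeq2 called 1 lower, Osr2, the single gene with an unadjusted p under 0.05. Foxf1, at 0.53 CPM in controls and 1.12 CPM in p53_activated embryos, had a log2 fold change of 1.10 ± 0.68 (edgeR adjusted p = 0.367), and Foxc2 was at -0.25 ± 0.15 (0.346). Osr2, a palate gene, was at -1.97 ± 0.69 (edgeR adjusted p = 0.0997), and its control mean rested on control replicate 1, at 8.53 CPM against 0.415 to 2.60 CPM in the other 4. Of 4 targets tied to cell proliferation Ccnd1, which encodes cyclin D1, rose from 39.2 ± 5.58 to 70.9 ± 13.5 CPM (SD, n = 5 each) with no overlap (log2 fold change 0.85 ± 0.14, adjusted p = 0.00109), under all 20 other settings as well. Mycn (0.42 ± 0.13, 0.0575), Ccnd2 (0.33 ± 0.10, 0.0582) and Bcl2 (-0.05) did not pass with edgeR. DESeq2 called 3 of the 4 higher, Mycn and Ccnd2 besides Ccnd1, and the groups did not overlap in Ccnd2. Cyclin D1 and MYCN answer to many other signals besides Hedgehog.

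**Figure D4:**
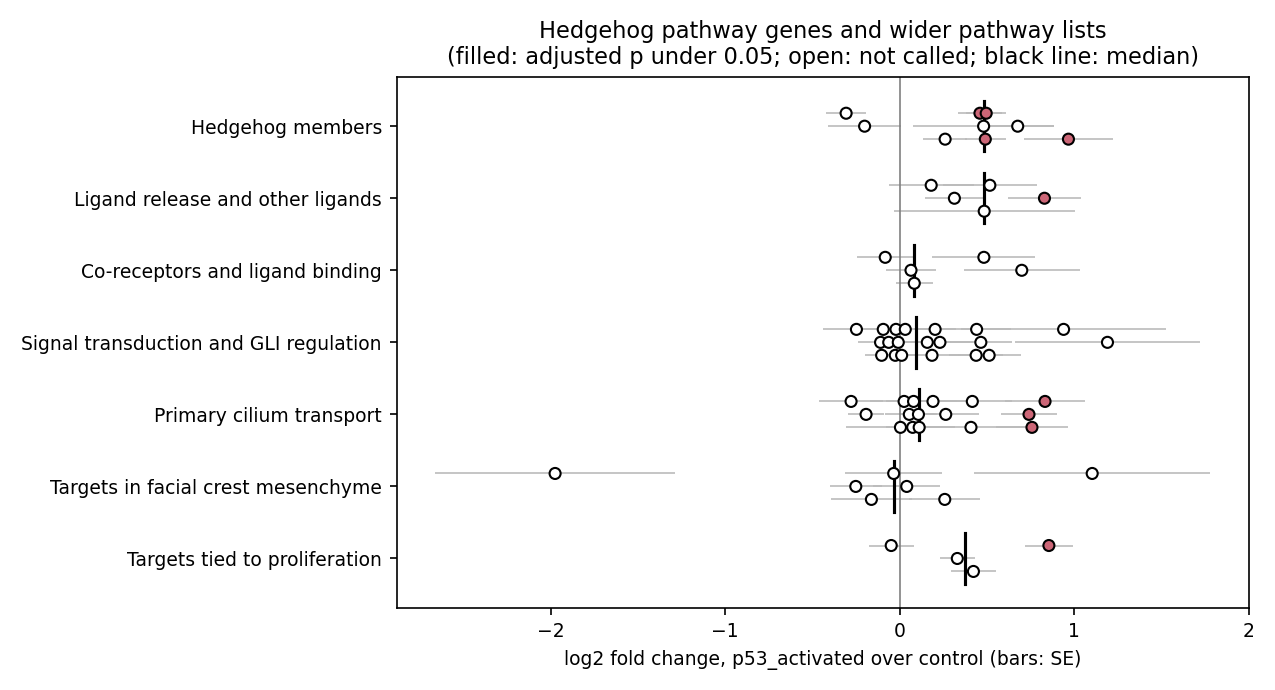
Log2 fold changes of p53_activated over control with standard errors for the 9 Hedgehog members and the 57 tested genes of 6 wider pathway lists; filled points had an adjusted p under 0.05, and black lines mark list medians. The member median is 0.48, the list medians lie between -0.03 and 0.48, and all 9 filled points are to the right of 0.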

How the data were processed

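One file holds raw gene-level read counts as the authors deposited them, with columns matched to embryos through the sample numbers in the labels. Another is the authors' own comparison, whose columns per the file headers are a mean normalized count (signal), log2 fold changes and their errors, a test statistic (score) and p-values. Tools listed in the submitters' processing notes are DESeq2 1.14.1, HTSeq 0.6.1, HISAT2 2.0.4 and SAMtools 1.3.1, and the build is GRCm38. Strand setting and annotation release: not given in the sources used here. Each library came from a single embryo, per the labels' protocols.

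All 10 libraries entered a single model with genotype as its term. Genes were kept by filterByExpr (minimum count 10, minimum total 15), libraries were TMM-scaled, and edgeR 4.0.16 in R 4.3.3 gave robust quasi-likelihood F-tests. Benjamini-Hochberg adjustment ran over 14528 genes, and calls were made at 0.05. The code was tested on simulated data. Standard errors were derived as log2 fold change over the root of F. Correlations used log2 CPM with prior count 2 and 100000 permutations of libraries within groups. GENCODE M21 on GRCm38 supplied positions, exon lengths and shared exons. The genes named are the 9 members, the called genes of each wider list, and otherwise the 3 with the smallest p of that list. A gene that this rule names is not reported here. Members, lists and added alternatives were chosen with earlier results of these data known.

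Alternatives were other scalings and filters, DESeq2 1.42.0, limma-voom 3.58.1, non-robust dispersions, embryo sex, the replicate number as a block, a threshold of 0.01 and each library left out. Embryo sex was inferred from the level of Xist against the summed levels of Y-linked genes. Added after the data were seen were leaving out control replicates 1 and 2 together and removing a lowess trend on exon length (span 0.3).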

Additional observations from a re-analysis of the deposited data

Results flagged for a closer look

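Cdon in the p53_activated group was marked because 1 embryo lay far from the others: p53_activated replicate 4 was at 54.7 CPM and the other 4 between 41.9 and 45.6 CPM, a gap of 0.712 of the group's range against a critical value of 0.71 for 5 samples. Of 18 groups of 5 values checked this was the only one, and chance marks about 1 in 20. Without that embryo the log2 fold change of Cdon was 0.42 (edgeR adjusted p = 0.0392), beside 0.49 (0.0183) with it.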

How the results depend on the processing

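All 9 members kept the direction of their log2 fold change under all 20 other planned settings. Of the 9 members 4 were called higher and 0 lower. The higher calls were 2 with total-count scaling, with embryo sex as a term and with the exon length trend removed (added after the data were seen), 0 at a threshold of 0.01, and 2 to 5 when 1 library was left out. The lower calls were 0 to 1 when 1 library was left out. With the replicate block the higher calls were 3 (Ptch1 0.029, Gli3 0.0353 and Cdon 0.047), while Gli1 was at an adjusted p of 0.0671. Deviations from the group means correlated at an r over 0.1 in 1 of 5 same-numbered pairs (range -0.0529 to 0.113). Between differently numbered libraries r reached 0.128. With values this small, whether the numbers pair the embryos cannot be told.

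Over all tested genes, 652 were called higher and 398 lower. The higher calls were 276 at a threshold of 0.01 and 430 to 707 with 1 library left out. The lower calls were 664 with DESeq2, 245 with embryo sex, 194 without control replicates 1 and 2, 99 at 0.01 and 192 to 433 with 1 library left out. In the wider lists 5 genes were called higher: 3 with total-count scaling, 3 with the replicate block, 2 without control replicates 1 and 2, 2 at 0.01 and 2 to 6 with 1 library left out. Lower calls there were 1 with DESeq2 and 0 to 1 with 1 library left out; both times Osr2 was the gene (adjusted p = 0.0268 with DESeq2 and 0.0361 without control replicate 3). No member failed the filter on low counts, so the test planned for such genes was not run. Hhip was the least counted member, with 14 to 107 counts per library.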
